A study of Mus musculus with 24 samples.

Results

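The ADAMTS proteases described here are 10 secreted metalloproteases, Adamts1, Adamts2, Adamts3, Adamts4, Adamts5, Adamts9, Adamts12, Adamts15, Adamts18 and Adamts20, followed in mouse tooth germ mesenchyme. They were taken by symbol from a list of names, a rule that uses no level, and are 10 of the 19 Adamts genes among the 56748 genes counted. The list was chosen with earlier results of these data known. Counts of called members beside the share of all genes therefore describe this list only. Each of the 10 passed the filter on low counts in all 12 comparisons. The RNA came from the first molar of the mandible of ICR mouse embryos at the cap stage (embryonic day 13) and the bell stage (embryonic day 15), and no transgene or drug is named for any group. Cap-W and Bell-W were undivided germs. Cap-L and Cap-B were the lingual (tongue side) and buccal (cheek side) parts of cap germs separated by a needle cut, and Bell-L and Bell-B the same parts of bell germs. Cap-L+2D, and on the other side Cap-B+2D, were cap parts kept in culture for 2 days before RNA was taken. Every group had 3 libraries, which makes 24 in all, and per the labels mesenchymal cells were isolated with dispase II, although the design text calls the W samples whole germs. The tissue is therefore a mixture of mesenchymal cells with whatever other cells the cut and the enzyme left in it, and the number of embryos behind a library is not given in the sources used here.

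Counts per library totalled between 20581720 and 39266497. Levels are given as CPM, counts scaled to 1000000 per library after TMM normalization, and a gene was called where the edgeR quasi-likelihood test gave a Benjamini-Hochberg adjusted p below 0.05 and an absolute log2 fold change above 0.5. For an exact permutation test of 3 against 3 libraries the smallest p is 0.1, so single genes were tested only in the model fitted across all genes. The methods speak both of triplicate sequencing and of a smaller number of biological replicates, and do not tie libraries to litters, so the p-values measure only the spread between these libraries, which may be technical. All 8 dental mesenchyme markers, among them Msx1 and Pax9, were above the floor of 3 counts in every group, and their summed level lay between 1941 and 3696 CPM. The undivided germs varied more than the parts. Bell-W replicate 3 held 1987 CPM of epithelial markers against 451 CPM in the lowest Bell-W library, and Cap-W replicate 2 stood apart for Adamts5. A lower level of a gene in such bulk RNA can mean fewer cells of a type or less RNA per cell, which cannot be told apart here.

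ADAMTS enzymes are secreted as inactive proenzymes, trimmed by furin-type convertases and anchored to the matrix by thrombospondin repeats, where they cut matrix proteins. ADAMTS2 and ADAMTS3 remove the amino-terminal propeptide of fibrillar procollagens, and ADAMTS3 also trims the lymphatic growth factor VEGF-C with the help of CCBE1. ADAMTS1, ADAMTS4, ADAMTS5, ADAMTS9, ADAMTS15 and ADAMTS20 can cut the hyaluronan-binding proteoglycans versican and aggrecan, and versican is a main component of the loose matrix of embryonic mesenchyme. ADAMTS12 and ADAMTS18 are less well placed by substrate. ADAMTS12 has been linked to cartilage matrix, and ADAMTS18 to epithelial branching and to fibronectin-rich matrix.

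The catalytic site shows how the members are related and is shown for 6 of them, the procollagen pair and those with the clearest pattern by side. The lines give the coding strand of the site, 5′ to 3′, 36 bases each, read from the canonical GENCODE transcript of each gene and placed on GRCm39 by its exons. Capitals mark the codons of the 3 histidines that hold the zinc ion.
Adamts2: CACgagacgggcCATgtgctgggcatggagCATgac
Adamts3: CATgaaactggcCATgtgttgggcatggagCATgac
Adamts1: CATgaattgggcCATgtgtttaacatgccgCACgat
Adamts9: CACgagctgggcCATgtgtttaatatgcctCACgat
Adamts20: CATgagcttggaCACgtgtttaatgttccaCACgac
Adamts18: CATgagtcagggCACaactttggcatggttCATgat
In all 10 members an exon junction lies inside these 36 bases. It falls after base 10 in Adamts1, Adamts4, Adamts5 and Adamts15, and after base 17 in Adamts2, Adamts3, Adamts9, Adamts12, Adamts18 and Adamts20. Adamts2 and Adamts3 share 32 of 36 bases, Adamts1 and Adamts9 share 31, Adamts9 and Adamts20 share 28, and Adamts18 and Adamts20 share 19. On GRCm39 the site of Adamts9 (minus strand of chromosome 6) runs from 92885474 to 92885458 in exon 8 and from 92882281 to 92882263 in exon 9 of 40. That of Adamts20 (minus strand of chromosome 15) runs from 94253177 to 94253161 in exon 8 and from 94251574 to 94251556 in exon 9 of 39. That of Adamts18 (minus strand of chromosome 8) begins at 114497684 in exon 8 and ends at 114493797 in exon 9 of 23, and that of Adamts1 (minus strand of chromosome 16) begins at 85596433 in exon 3 and ends at 85596076 in exon 4 of 9. The sites of Adamts2 (plus strand of chromosome 11, 50666230 to 50666964) and Adamts3 (minus strand of chromosome 5, 89855677 to 89855289) span exons 7 and 8 and exons 8 and 9 of 22.

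The genes lie on 8 chromosomes, and Adamts1 (chromosome 16, 85590715 to 85600001) and Adamts5 (chromosome 16, 85653061 to 85698716) are neighbours on the same strand. Counting ignored strand, and read pairs falling on more than 1 gene were left out. In Adamts9, 12% of the exon bases are also covered by A730049H05Rik or Gm15737 on the other strand, and its numbers leave out pairs from the shared stretches. The exons of 8 of the 10 members overlap no other gene of the table.

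Adamts1 was the most abundant member per length in every group, and the summed level of the 10 was highest in cultured lingual mesenchyme. Expressed as RPKM, CPM divided by the kilobases of exon, the mean level of Adamts1 ran from 11.7 in Cap-W to 114 in Cap-L+2D. Adamts10, an enzyme of fibrillin microfibrils that is not among the 10, was the only Adamts gene to exceed it in any group, and did so in Cap-W, Cap-B and Bell-B. At the other end, the level of Adamts18 was 0.256 RPKM in Cap-B+2D. The summed RPKM of the 10 members was 93.0 ± 5.43 in Cap-L (mean ± SD, n = 3, for all levels), 85.4 ± 0.685 in Cap-B, 127 ± 2.50 in Bell-L and 89.4 ± 0.866 in Bell-B. For log2 fold changes and for changes of a side difference, the value after ± is the SE from the fitted model. After culture it was 209.8 ± 3.38 in Cap-L+2D and 133 ± 1.05 in Cap-B+2D. The lingual and buccal libraries overlapped in no stage or culture condition for this sum. Over all 19 Adamts genes the fresh cap went the other way, with a summed RPKM of 157 ± 5.85 in Cap-L and 164 ± 3.72 in Cap-B, whose libraries overlap, while the lingual sum was above the buccal one in the bell parts (183 ± 3.95 against 155 ± 3.52) and after culture (283 ± 4.55 against 209 ± 3.16).

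**Figure D1:**
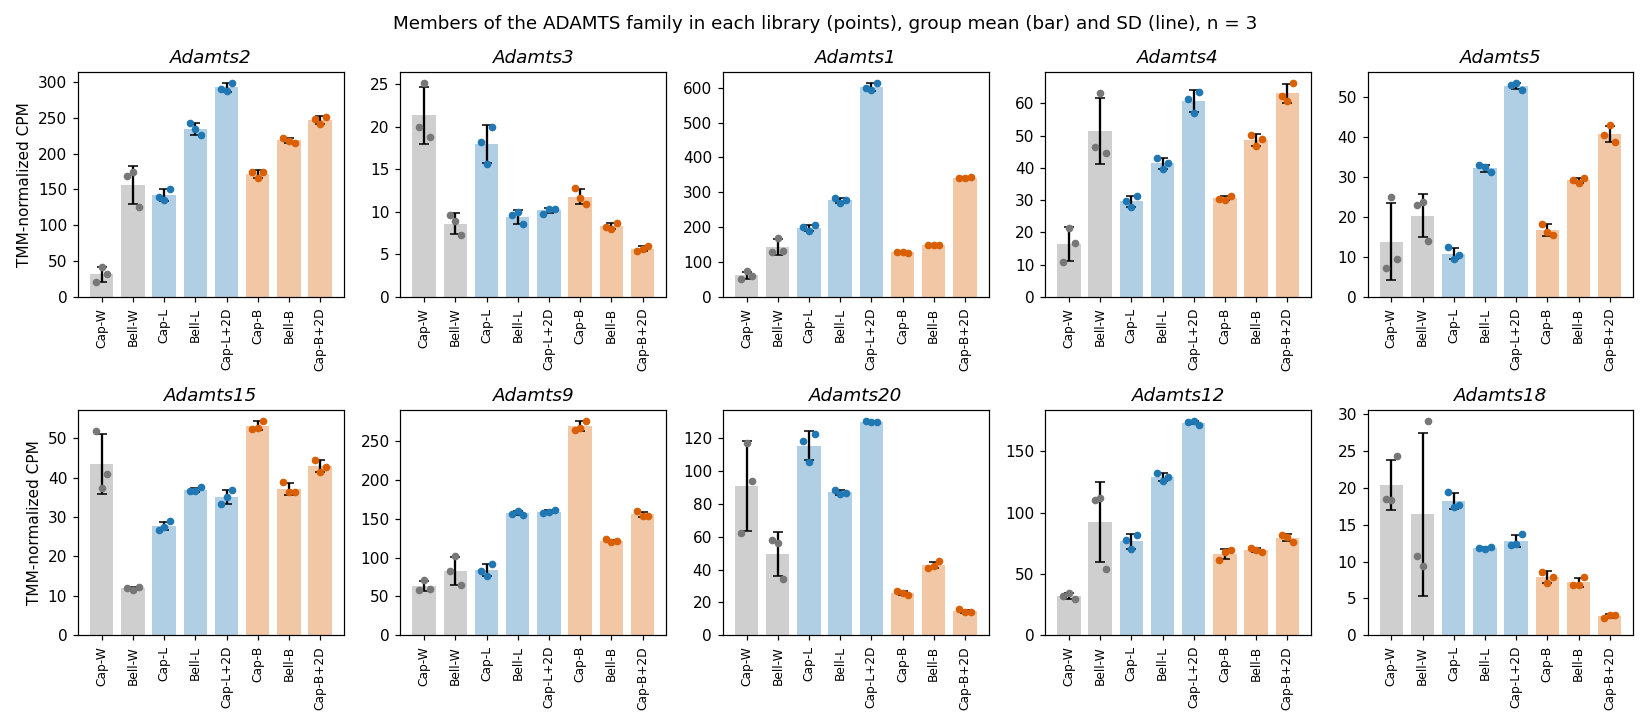
TMM-normalized CPM (vertical axis, linear from 0) of each of the 10 members in the 8 groups. Points are libraries, bars group means and lines the SD of 3 libraries, with undivided germs in grey, lingual parts in blue and buccal parts in orange. Adamts20 stands at 116 CPM in Cap-L and 25.8 in Cap-B, while Adamts9 is highest in Cap-B at 269.

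**Figure D2:**
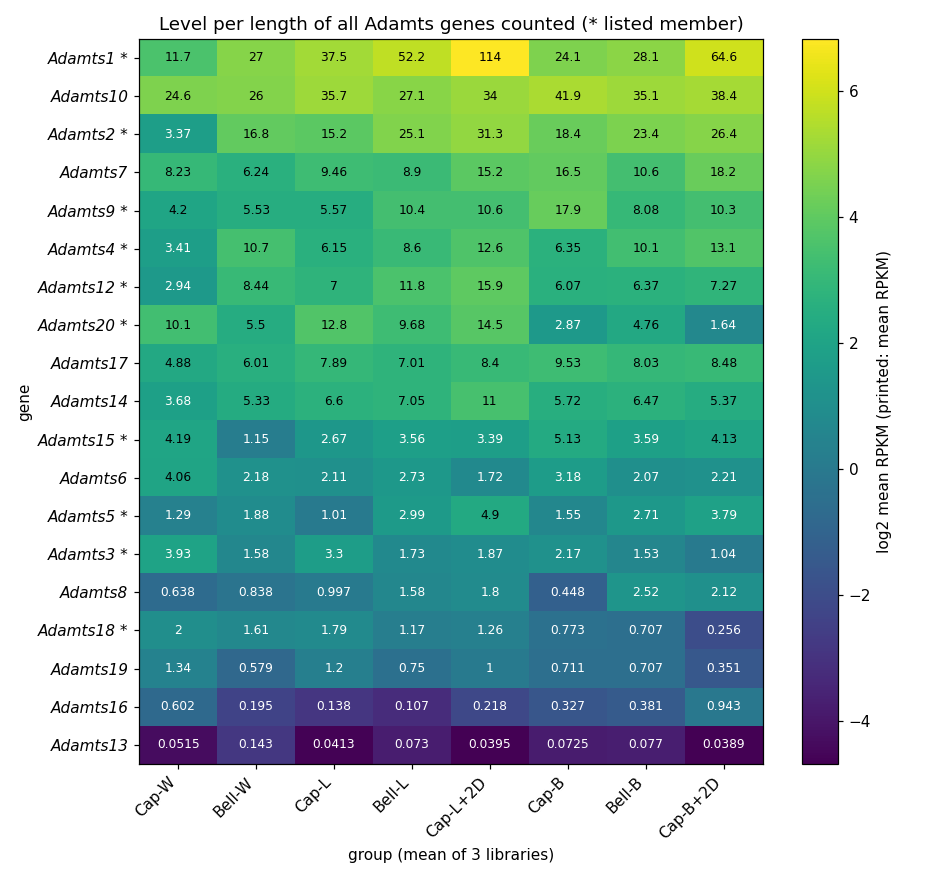
Mean RPKM of the 19 Adamts genes (rows, ordered by their mean) in the 8 groups (columns). Colour shows log2 RPKM, the printed value is the mean RPKM of 3 libraries, and asterisks mark the 10 members. Adamts1 reaches 114 in Cap-L+2D, and Adamts13 stays near the bottom in all groups.

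The lingual and buccal parts were compared to find out how the mesenchyme of the germ differs by side. In fresh cap mesenchyme the members split by side. Adamts20, Adamts18, Adamts1 and Adamts3 were higher in the lingual part, and Adamts9, Adamts15 and Adamts5 were higher in the buccal part. These 7 called members of 10 stand against 17.5% of the 20653 genes tested, 4 of 10 lower in Cap-B against 7.10% and 3 of 10 higher against 10.4%. The 3 libraries of each side did not overlap in 9 members, against 52.2% of all genes, and the median log2 fold change of the members was -0.05 against -0.006 over all genes. After 2 days in culture 5 members were lower in the buccal part and none higher (25.1% of genes called in all, 12.5% lower), with 8 members not overlapping against 58.8% and a median of -0.60 against 0.001. In the bell germ 4 members were lower in the buccal part and none higher (12.9% of genes called, 6.88% lower), with 8 members not overlapping against 45.5% and a median of -0.27 against 0.000. Adamts1, Adamts18 and Adamts20 were lower in the buccal part in all 3 of these comparisons.

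Adamts20, a versican-cutting enzyme whose loss gives belted mice with a white band of unpigmented skin, had the largest difference by side of the 10 in each of the 3 comparisons. Its level in the Cap-L libraries was 118, 106 and 122 CPM, and in the Cap-B libraries 26.9, 25.7 and 24.8 CPM. Cap-B was 4.4-fold lower (log2 fold change -2.14 ± 0.064, adjusted p = 6.14e-15). The groups are far apart, with every Cap-L library above 100 CPM and every Cap-B library below 30 CPM. In Cap-L+2D the libraries held 131, 130.2 and 129.7 CPM and in Cap-B+2D 15.8, 13.9 and 14.4 CPM, an 8.87-fold difference (log2 fold change -3.15 ± 0.049, adjusted p = 2.02e-25). In the bell parts the gap was narrower, with 88.7, 85.9 and 86.8 CPM in Bell-L and 41.3, 42.1 and 45.1 CPM in Bell-B (log2 fold change -1.02 ± 0.039, adjusted p = 1.68e-24). The side difference was smaller at the bell stage than in the fresh cap by 1.11 ± 0.077 on the log2 scale (adjusted p = 1.12e-12) and larger after culture, the change being -1.02 ± 0.082 (adjusted p = 1.8e-11). Ordered by mean over the 6 part groups, Cap-L+2D came first, then Cap-L, Bell-L, Bell-B, Cap-B and Cap-B+2D, and no neighbours in that order overlapped.

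Adamts18 was higher on the same side, at 1.79 RPKM in Cap-L where Adamts20 had 12.8. Its CPM was 19.5, 17.5 and 17.7 in Cap-L and 8.66, 7.07 and 7.88 in Cap-B, 2.28-fold lower in the buccal part (log2 fold change -1.19 ± 0.086, adjusted p = 2.03e-09). After culture the Cap-L+2D libraries held 12.3, 12.4 and 13.8 CPM and the Cap-B+2D libraries 2.31, 2.74 and 2.78 CPM (log2 fold change -2.32 ± 0.1, adjusted p = 4.64e-16). The cultured buccal part thus had the lowest values of Adamts18 in the series, and the distance between the sides was larger than in the fresh cap by 1.13 on the log2 scale (adjusted p = 1.11e-07). At the bell stage Adamts18 stood at 11.9, 11.8 and 12.0 CPM in Bell-L and 6.88, 6.76 and 7.94 CPM in Bell-B (log2 fold change -0.72 ± 0.082, adjusted p = 1.07e-09). Adamts1, which also cuts versican and is known for its part in ovulation, was lower in the buccal part each time, with 201, 189 and 206 CPM in Cap-L and 129, 129 and 126 CPM in Cap-B (log2 fold change -0.61 ± 0.048, adjusted p = 6.63e-09). The difference was -0.82 ± 0.035 after culture (adjusted p = 1.65e-16) and -0.89 ± 0.031 in the bell parts (adjusted p = 8.41e-26).

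Adamts9, the nearest relative of Adamts20 and like it one of the longest family members, went the other way in the fresh cap. Its level was 83.0, 76.4 and 91.9 CPM in Cap-L and 264, 268 and 276 CPM in Cap-B, 3.28-fold higher in the buccal part (log2 fold change 1.71 ± 0.059, adjusted p = 4.53e-14). Cap-B was the highest of the 8 groups, and its libraries overlapped with none of the others. In the cultured parts the CPM of Adamts9 was 157, 159 and 161 on the lingual side and 159.9, 154 and 153 on the buccal side, which overlap (log2 fold change -0.04 ± 0.036, adjusted p = 0.39). In the bell parts it was 156, 159.8 and 155 CPM on the lingual side and 124, 120.1 and 121 on the buccal side, a reversed and uncalled difference (log2 fold change -0.37 ± 0.032, adjusted p = 6.84e-13). The change in the side difference from fresh cap to bell was -2.09 ± 0.067 (adjusted p = 1.27e-20), and from fresh to cultured cap -1.76 ± 0.067 (adjusted p = 4.66e-19), the largest of the 10 members in both.

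Adamts15 and Adamts5 were also higher in the buccal part of the fresh cap. The CPM of Adamts15 was 26.8, 27.4 and 28.9 in Cap-L and 52.4, 52.6 and 54.4 in Cap-B, 1.95-fold higher (log2 fold change 0.97 ± 0.052, adjusted p = 2.89e-11). By the bell stage Adamts15 stood at 36.9 ± 0.561 CPM in Bell-L and 37.2 ± 1.48 in Bell-B, which overlap (log2 fold change 0.01 ± 0.047, adjusted p = 0.895), and the change of the side difference was -0.96 (adjusted p = 1.78e-12). For Adamts5, an aggrecan-cutting enzyme of cartilage, the CPM was 12.5, 9.59 and 10.6 in Cap-L and 18.4, 16.3 and 15.6 in Cap-B (log2 fold change 0.65 ± 0.095, adjusted p = 1.86e-05). Its side difference was -0.38 ± 0.048 after culture (adjusted p = 2.13e-07), where the buccal part was the lower, and it changed by -1.04 from fresh to cultured cap (adjusted p = 1.18e-09). Adamts4, the other classical aggrecanase, was not called by side in any of the 3 comparisons, its largest difference being 0.23 ± 0.044 in the bell parts (adjusted p = 3.34e-05).

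Adamts12 was called by side at the bell stage and in culture, and not in the fresh cap. Its CPM was 77.9, 70.0 and 81.4 in Cap-L and 61.6, 67.9 and 69.5 in Cap-B, a small uncalled difference (log2 fold change -0.18 ± 0.061, adjusted p = 0.0262). In the bell parts it was 132, 125 and 129 CPM in Bell-L and 71.2, 69.8 and 67.7 in Bell-B, 1.85-fold lower on the buccal side (log2 fold change -0.89 ± 0.035, adjusted p = 3.84e-24), and after culture 174, 174 and 172 in Cap-L+2D and 81.5, 80.3 and 76.3 in Cap-B+2D (log2 fold change -1.13 ± 0.039, adjusted p = 2.09e-18). Both changes of the side difference passed the test, -0.72 to the bell stage (adjusted p = 2.59e-09) and -0.96 in culture (adjusted p = 2.6e-12). The procollagen enzymes differed from each other. Adamts3 was lower in the buccal part in the fresh cap, 18.2, 15.6 and 20.0 CPM against 12.8, 11.7 and 11.0 CPM (log2 fold change -0.58 ± 0.095, adjusted p = 7.93e-05), and after culture (log2 fold change -0.86 ± 0.087, adjusted p = 6.41e-09), and its libraries overlapped in the bell parts (log2 fold change -0.17 ± 0.085, adjusted p = 0.109). Without Cap-L replicate 3 the fold of Adamts3 in the fresh cap was -0.49 and no longer called. Adamts2 was not called by side, with differences of 0.30 in the fresh cap, -0.25 after culture and -0.10 in the bell parts.

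**Figure D3:**
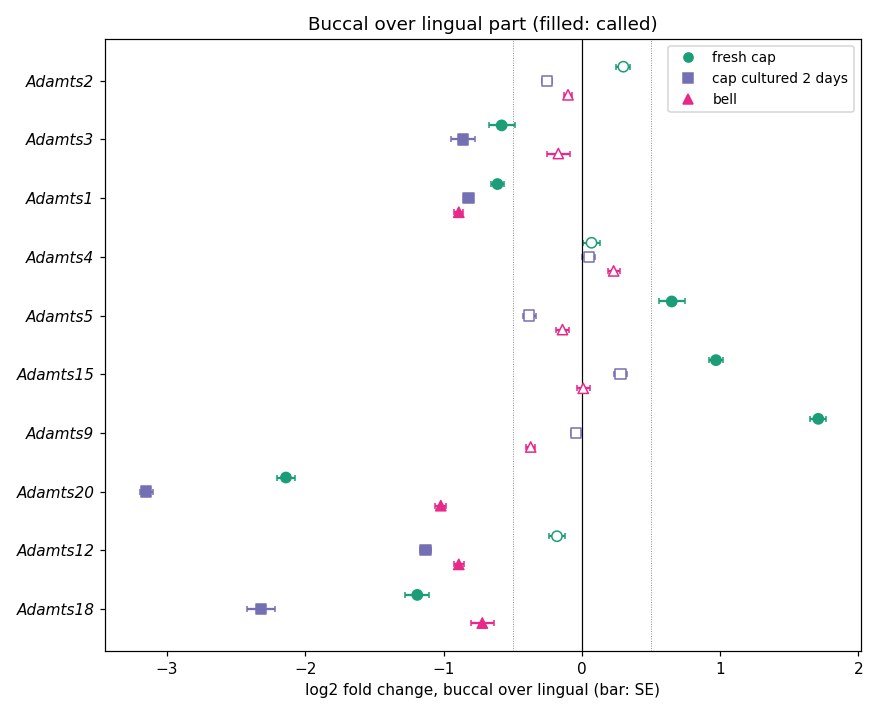
Log2 fold change of the buccal over the lingual part (horizontal axis, bars are the SE) for the 10 members in the fresh cap, in the cap after 2 days of culture and in the bell germ, from 3 libraries a group. Filled symbols were called and dotted lines mark 0.5. Adamts9 lies at 1.71 in the fresh cap and near 0 after culture, and Adamts20 at -3.15 after culture.

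Other cell types differed between the sides as well, and their part in these results was not tested. All 7 skeletal muscle markers were above the floor in Cap-B, and 6 of 7 in Cap-L, where Myf5 was not. Their summed level was 17.1 to 18.1 CPM in Cap-L and 196 to 207 in Cap-B, 97.9 to 106 in Bell-L and 713 to 735 in Bell-B, and 229 to 244 in Cap-L+2D and 2874 to 2969 in Cap-B+2D. The 6 osteoblast markers summed to 971 to 982 CPM in Cap-L and 445 to 462 in Cap-B, where Bglap was at the floor, and after culture to 2351 to 2374 in Cap-L+2D and 577 to 588 in Cap-B+2D. The 7 epithelial markers summed to 386 to 421 CPM in Cap-L+2D and 78.6 to 80.3 in Cap-B+2D, with Shh at or under the floor there. Endothelial markers were within 401 to 464 CPM in both fresh cap parts, and 395 to 400.1 in Cap-L+2D against 164 to 168 in Cap-B+2D.

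**Figure D4:**
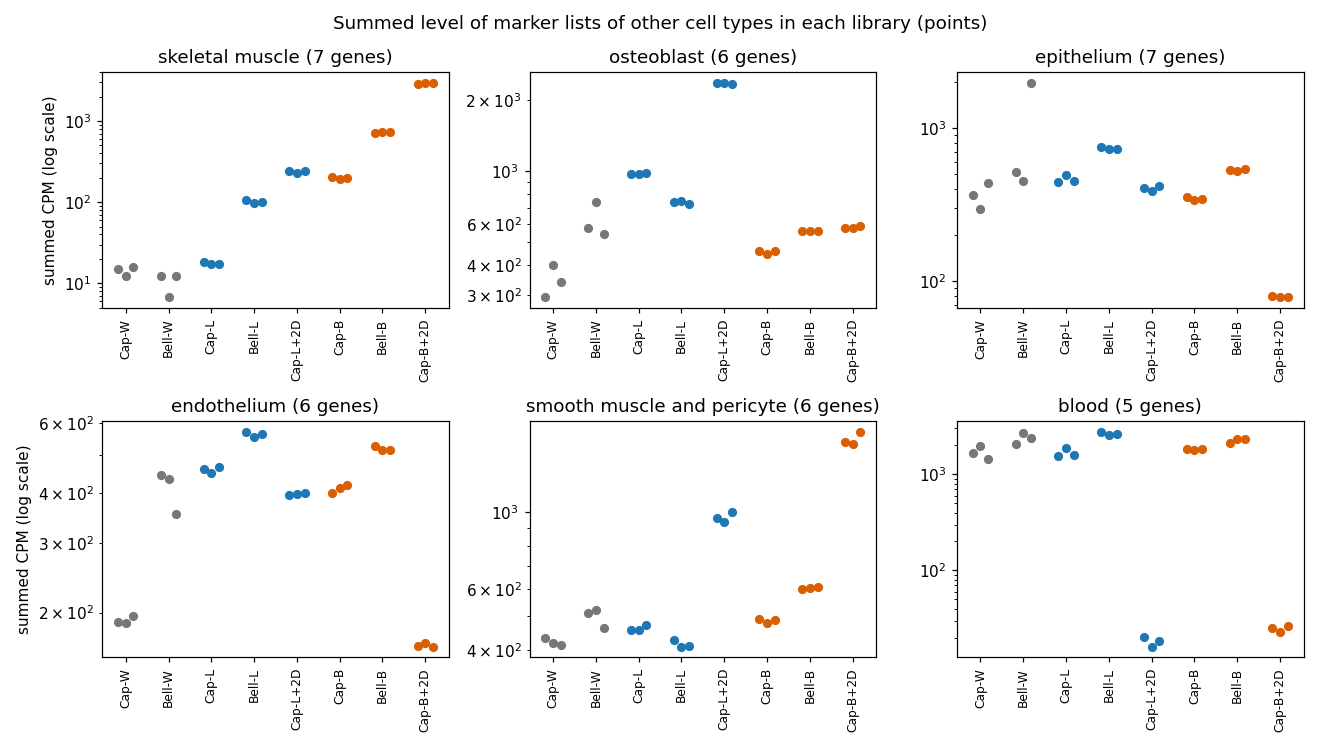
Summed CPM of marker genes (vertical axis, log scale) of 6 other cell types in each of the 24 libraries (points), in grey for undivided germs, blue for lingual and orange for buccal parts. Skeletal muscle markers reach 2969 CPM in Cap-B+2D, and blood markers lie at or below 26.5 CPM in the cultured parts.

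The lingual part was followed from the cap to the bell stage and into culture. Adamts5, Adamts9, Adamts12, Adamts2 and Adamts4 rose from Cap-L to Bell-L, and Adamts3 and Adamts18 fell. That is 7 of 10 members against 20.0% of 21425 genes, 5 higher against 14.2% and 2 lower against 5.78%. Macrophage markers moved with the stage, all 5 being called higher in Bell-L, with a summed level of 49.9 to 52.5 CPM in Cap-L and 163 to 165 in Bell-L, and in Cap-L+2D 4 of 5 were called higher, at 160 to 165 CPM. Their part in these changes was not tested. In culture 6 members were higher in Cap-L+2D than in Cap-L (19.6% of genes) and 2 lower (15.9%), so that 8 of 10 were called against 35.4%. All 10 members had non-overlapping groups in both comparisons, against 56.1% and 66.9% of genes, and their medians were 0.49 against 0.002 and 0.98 against -0.032 over all genes. Both comparisons use the same Cap-L libraries, so their values stand side by side and are not independent.

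Adamts5 had the largest change in both. It went from 12.5, 9.59 and 10.6 CPM in Cap-L to 33.0, 32.5 and 31.3 in Bell-L, 3.01-fold (log2 fold change 1.59 ± 0.071, adjusted p = 1.47e-15), and to 53.2, 53.5 and 52.0 in Cap-L+2D, 4.86-fold (log2 fold change 2.28 ± 0.069, adjusted p = 1.4e-19). Adamts1, its neighbour on chromosome 16, was just under the fold threshold at the bell stage, where it was 283, 269.7 and 279 CPM (log2 fold change 0.49 ± 0.044, adjusted p = 8.72e-10). In culture the libraries of Adamts1 reached 598, 594 and 615 CPM, and per length no member was higher in any group (log2 fold change 1.59 ± 0.044, adjusted p = 3.05e-20). Cap-L+2D was above Bell-L for Adamts1 (log2 fold change 1.10 ± 0.044, adjusted p = 7.84e-17), Adamts5 (0.69), Adamts20 (0.56) and Adamts4 (0.53), 4 of 10 members against 31.2% of genes, and below it for none of the 10. The groups of this pair did not overlap for 7 members, against 67.2% of genes.

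Among the others in the lingual part, Adamts9 rose 1.9-fold to the bell stage and 1.89-fold in culture (adjusted p = 1.38e-13 and 5.88e-14). Adamts12 rose 1.7-fold and 2.26-fold (adjusted p = 2.12e-12 and 1.42e-16), and Adamts2 1.67-fold and 2.05-fold (adjusted p = 1.33e-12 and 5.5e-16). Adamts2 and its relative Adamts3 moved in opposite directions. The CPM of Adamts2 was 139.6, 135 and 151 in Cap-L, 243, 235 and 225 in Bell-L and 291, 287 and 299 in Cap-L+2D, while Adamts3 went from 18.2, 15.6 and 20.0 in Cap-L to 9.69, 9.97 and 8.52 in Bell-L (log2 fold change -0.91 ± 0.089, adjusted p = 4.32e-09) and 9.78, 10.4 and 10.3 in Cap-L+2D (log2 fold change -0.82 ± 0.087, adjusted p = 1e-08). Adamts4 sat at the threshold to the bell stage (log2 fold change 0.50 ± 0.058, adjusted p = 7.93e-08) and was called in culture (log2 fold change 1.03 ± 0.056, adjusted p = 2.62e-14), and Adamts18 was lower in both (-0.60 and -0.51, adjusted p = 1.4e-07 and 7.8e-07). The stage call of Adamts4 was lost without Cap-L replicate 1 or 2, without Bell-L replicate 1 or 3 or without any single Cap-L+2D library, with folds of 0.45 to 0.50, and also without a count filter (0.49), under a block for the replicate number (0.50) and with all 24 libraries in 1 fit (0.49). The culture call of Adamts18 was lost without Cap-L replicate 1 or Cap-L+2D replicate 1 or 2, with folds of -0.47 to -0.49, and under RLE scaling (-0.49), DESeq2 (-0.49), no count filter (-0.50) and the fit of all 24 libraries (-0.52, adjusted p = 0.0929). In that fit the stage call of Adamts18 was lost too (-0.61, adjusted p = 0.0717). Adamts1 was called to the bell stage without Cap-L replicate 3 (0.52) or Bell-L replicate 2 (0.51), and Adamts4 was no longer called between Cap-L+2D and Bell-L without Cap-L+2D replicate 3 (0.49) or Bell-L replicate 2 (0.50).

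In the buccal part the picture was more mixed. From Cap-B to Bell-B, Adamts5, Adamts20 and Adamts4 rose and Adamts9, Adamts15 and Adamts3 fell, 6 of 10 members against 18.7% of 21992 genes (12.0% higher, 6.73% lower). In culture Adamts1, Adamts5 and Adamts4 rose and Adamts18, Adamts3, Adamts20 and Adamts9 fell, 7 of 10 against 34.5% (17.9% higher, 16.6% lower). The groups did not overlap for 8 and 10 members, against 55.2% and 68.6% of genes, with medians of 0.14 against 0.005 and -0.06 against -0.020. The 5 macrophage markers were all called higher in Bell-B, summing to 48.7 to 54.6 CPM in Cap-B and 97.8 to 102 in Bell-B, and their part was not tested. These 2 comparisons share the Cap-B libraries.

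Adamts9 fell from 264, 268 and 276 CPM in Cap-B to 124, 120.1 and 121 in Bell-B (log2 fold change -1.15 ± 0.032, adjusted p = 1.5e-24) and to 159.9, 154 and 153 in Cap-B+2D (log2 fold change -0.83 ± 0.032, adjusted p = 2.4e-21), in the same steps in which it rose on the lingual side. Bell-L, Cap-L+2D and Cap-B+2D all lay between 153 and 161 CPM. Adamts20 went up with stage and down in culture, from 26.9, 25.7 and 24.8 CPM in Cap-B to 41.3, 42.1 and 45.1 in Bell-B (log2 fold change 0.73 ± 0.053, adjusted p = 2.53e-13) and 15.8, 13.9 and 14.4 in Cap-B+2D (log2 fold change -0.84 ± 0.061, adjusted p = 7.29e-14). Adamts18 did not differ beyond the threshold between Cap-B and Bell-B (log2 fold change -0.13 ± 0.098, adjusted p = 0.288), and in culture it fell 3.1-fold (log2 fold change -1.63 ± 0.12, adjusted p = 5.62e-14). Adamts1 rose 2.61-fold in culture, with 341, 342 and 344 CPM in Cap-B+2D (adjusted p = 2.24e-27), and Adamts5 2.38-fold (adjusted p = 7.15e-19).

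Adamts3 was lower than in Cap-B in both Bell-B (log2 fold change -0.51 ± 0.082, adjusted p = 4.66e-06) and Cap-B+2D (log2 fold change -1.09 ± 0.087, adjusted p = 7.51e-13), and Adamts15 in Bell-B (log2 fold change -0.52 ± 0.044, adjusted p = 1.01e-11). The stage call of Adamts3 was lost without Cap-B replicate 1 (-0.45), Bell-B replicate 1 (-0.49) or Bell-B replicate 2 (-0.48), and also without a count filter (-0.49), with at least 10 counts in every library (-0.49) and with all 24 libraries in 1 fit (-0.50). Adamts2 lay just under the threshold in culture (log2 fold change 0.49 ± 0.033, adjusted p = 9.71e-15) and was called without Cap-B replicate 1 or Cap-B+2D replicate 2, at 0.50 each. It was also called under RLE scaling (0.50), DESeq2 (0.50), no count filter (0.52) and the fit of all 24 libraries (0.51). Between Cap-B+2D and Bell-B, 4 of 10 members were called against 31.8% of genes, and all 10 did not overlap against 66.6%. Adamts1 was higher in the cultured part (1.17) and Adamts20 (-1.57), Adamts18 (-1.50) and Adamts3 (-0.59) lower. The cultured parts held almost no blood RNA, with 5 blood markers summing to 16.2 to 26.5 CPM against 1427 CPM or more in every fresh group. Smooth muscle and pericyte markers summed to 938 to 1709 CPM against 409 to 609 in the fresh parts. Of these 6 markers, 4 were called higher in Cap-L+2D than in Cap-L, and 2 in Cap-B+2D than in Cap-B. Rgs5 was called lower in both. The part of blood, smooth muscle and pericyte cells in the culture results was not tested.

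**Figure D5:**
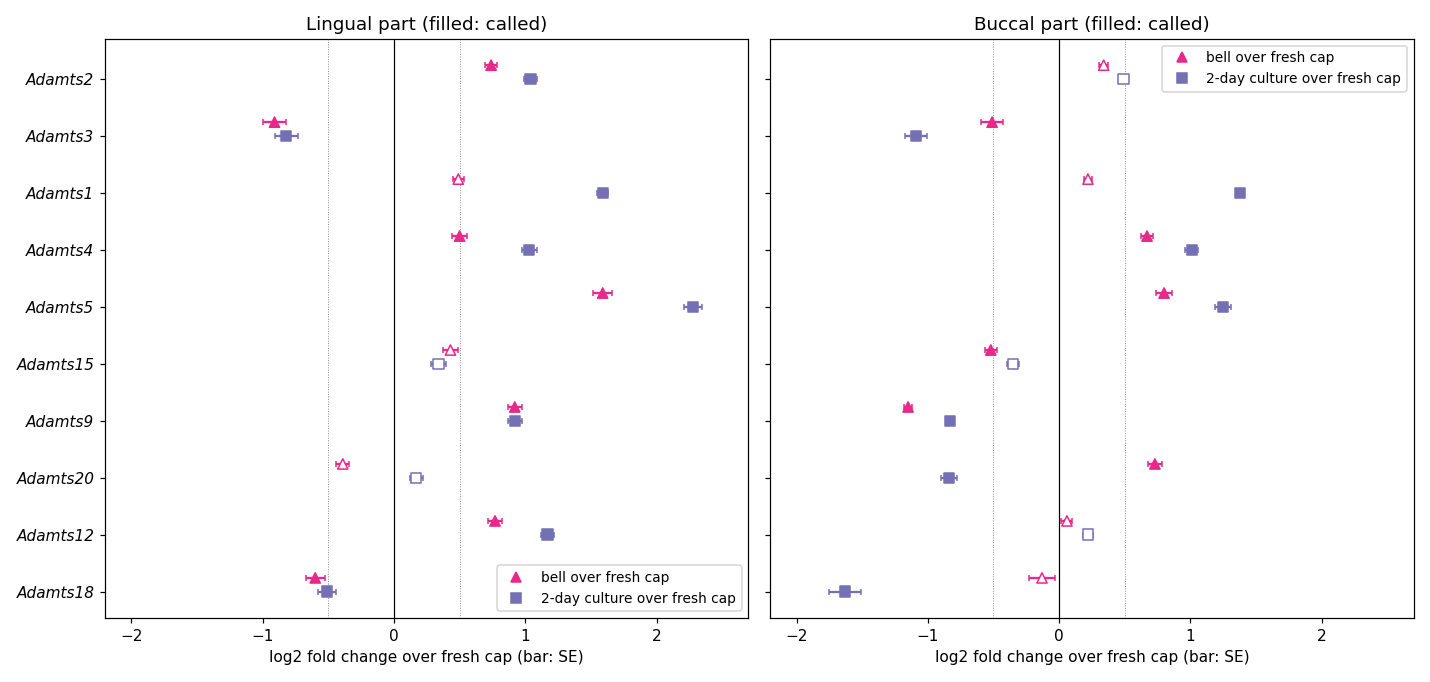
Log2 fold change over the fresh cap part (horizontal axis, bars are the SE) to the bell stage and to 2 days of culture, for the lingual part on the left and the buccal part on the right, with 3 libraries a group. Filled symbols were called and dotted lines mark 0.5. Adamts9 lies at 0.92 and 0.92 on the lingual side and at -1.15 and -0.83 on the buccal side.

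The change of the side difference itself was tested for each member. From fresh cap to bell it passed the test (adjusted p below 0.05, no fold threshold) for 9 of 10 members, 3 with a positive and 6 with a negative change, against 32.5% of 21931 genes (14.5% positive, 18.0% negative). From fresh to cultured cap it passed for 8 of 10 members, all with a negative change, against 35.5% of 22098 genes (16.0% positive, 19.5% negative). A negative change means that the buccal part lost ground to the lingual part. Adamts4 passed neither, at 0.15 ± 0.075 (adjusted p = 0.119) and -0.03 ± 0.077 (adjusted p = 0.821), and Adamts3 passed to the bell stage only (0.40 ± 0.13, adjusted p = 0.0203, against -0.28 ± 0.13 and 0.0933 in culture). Adamts3 to the bell stage no longer passed without Cap-B replicate 3 (0.35), Bell-L replicate 3 (0.32) or Bell-B replicate 3 (0.36). Adamts3 passed in culture without Cap-L replicate 3 (-0.37), and Adamts4 passed to the bell stage without Cap-L replicate 2 (0.22). With all 24 libraries in 1 fit, which includes the more variable undivided germs, 4 members passed in each, Adamts9, Adamts12, Adamts15 and Adamts20.

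The undivided germs at the cap and bell stages were compared for the change with stage in the whole mesenchyme, and their libraries varied more than those of the parts. Adamts2, Adamts4, Adamts12 and Adamts1 were higher in Bell-W than in Cap-W and Adamts15 and Adamts3 lower, 6 of 10 members against 14.5% of 20940 genes (10.3% higher, 4.21% lower). The groups did not overlap for 7 members, against 36.3% of genes, and the median was 0.47 against -0.033. All 5 macrophage markers were called higher in Bell-W (23.4 to 30.8 CPM summed in Cap-W, 99.1 to 119 in Bell-W) and so were all 6 endothelial markers, and their part was not tested. Adamts2 was 20.4, 42.0 and 31.8 CPM in Cap-W and 169, 174 and 126 in Bell-W, 4.95-fold higher (log2 fold change 2.31 ± 0.26, adjusted p = 0.00151). Adamts15 was 51.9, 37.4 and 40.8 CPM in Cap-W and 12.1, 11.4 and 12.2 in Bell-W, 3.65-fold lower (log2 fold change -1.87 ± 0.15, adjusted p = 0.000506). In the parts the log2 fold change with stage was 0.74 (lingual) and 0.34 (buccal, not called) for Adamts2, and 0.43 (lingual, not called) and -0.52 (buccal) for Adamts15.

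The Cap-W libraries did not lie between the 2 parts of the same stage for several members. Adamts2 in Cap-W was below every library of Cap-L and Cap-B, which ran from 135 to 175 CPM, and so were Adamts1 (51.3, 73.2 and 61.2 CPM) and Adamts12 (32.1, 34.2 and 29.9 CPM). Bell-W lay at 12.1, 11.4 and 12.2 CPM for Adamts15, below every Bell-L and Bell-B library, the lowest of which was 36.3 CPM. The Cap-W libraries also held fewer endothelial markers, 188 to 196 CPM against 401 or more in the cap parts, and fewer osteoblast markers, 293 to 400.4 CPM against 445 or more. The undivided germs and the cut parts were not compared by a test, and the effect of the cut cannot be told apart from the germs used.

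Adamts5, Adamts9, Adamts18 and Adamts20 were not called between the undivided germs, with 1 or 2 libraries weighing heavily. Adamts5 was 7.22, 25.1 and 9.43 CPM in Cap-W and 23.1, 23.8 and 14.1 in Bell-W (log2 fold change 0.54 ± 0.45, adjusted p = 0.474), and without Cap-W replicate 2 it was 1.27 and called. Adamts18 was 18.5, 18.4 and 24.3 CPM in Cap-W and 10.8, 9.38 and 29.1 in Bell-W (log2 fold change -0.32 ± 0.41, adjusted p = 0.652), where Bell-W replicate 3, the library rich in epithelial markers, is the high one. Without Bell-W replicate 3 the fold of Adamts18 was -1.02 and called, and that of Adamts9 was 0.54 and called, against 0.39 with it. Adamts20 was 62.3, 117 and 93.8 CPM in Cap-W and 58.3, 56.0 and 34.1 in Bell-W (log2 fold change -0.88 ± 0.27, adjusted p = 0.0672), and without Cap-W replicate 1 it was -1.09 and called. Without both Cap-W replicate 2 and Bell-W replicate 3, chosen after their levels were seen, 9 of the 10 members were called, all but Adamts20 (-0.46).

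Among the other 9 Adamts genes the sides differed in the fresh cap for 5 of 8 tested, Adamts7, Adamts6 and Adamts16 being higher in the buccal part and Adamts8 and Adamts19 lower, against 10.4% of all genes higher and 7.10% lower. Adamts7, the nearest relative of Adamts12, stood at 57.4, 60.2 and 60.6 CPM in Cap-L and 104, 96.6 and 109 in Cap-B (log2 fold change 0.82 ± 0.049, adjusted p = 1.43e-10), and Adamts19 was lower in the buccal part (-0.73) and more so after culture (-1.52, adjusted p = 2.28e-14). Adamts14, the third procollagen amino-proteinase, was higher in Cap-L+2D than in Cap-L (0.73, adjusted p = 9.81e-12) and lower in Cap-B+2D than in Cap-L+2D (-1.05, adjusted p = 2.05e-15). Adamts10 was not called in any of the 12 comparisons. Adamts8, which lies beside Adamts15 on chromosome 9, rose from 2.07, 1.88 and 2.25 CPM in Cap-B to 11.1, 11.2 and 12.5 in Bell-B (2.48, adjusted p = 6.05e-19), with 10.6% of its exon bases shared with Gm29724 on the other strand.

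The 7 ADAMTS-like genes, which resemble the enzymes but lack the protease, differed by side at both stages. In the fresh cap Adamtsl3 (2.24), Adamtsl5 (1.59), Adamtsl1 (1.26) and Adamtsl4 were higher in the buccal part and Papln lower (-1.69), 5 of 7 against 17.5%. At the bell stage Thsd4 (-1.70, adjusted p = 1.74e-33), Adamtsl4 (-1.65) and Papln (-1.63) were lower in the buccal part and 3 others higher, 6 of 7 against 12.9%. Adamtsl4, a binder of fibrillin, rose in the lingual part to the bell stage (2.89, adjusted p = 1.28e-17) and in culture (2.62). Adamtsl1, or punctin, had a pattern like that of Adamts9, and its side difference changed by -1.66 from fresh cap to bell (adjusted p = 2e-17).

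The matrix that the proteoglycan-cutting members act on was described by 12 genes for versican, its relatives, link proteins, hyaluronan synthases and Cd44. In the fresh cap 5 were higher in the buccal part and 3 lower of 9 tested, against 10.4% and 7.10% of all genes, among them Vcan, the versican gene, which was lower (-0.58, adjusted p = 2.1e-07), and Has3, a hyaluronan synthase, also lower (-1.12). After culture 3 of 11 were higher and 6 lower, against 12.5% of genes in each direction, Acan, the aggrecan gene, by 2.02 (adjusted p = 3.62e-18), Vcan by -1.17 and Has1 by -1.65. In the bell parts 2 of 9 were higher, including the link protein gene Hapln3 (0.99), and none lower, against 6.00% and 6.88% of genes. The lingual part gained Vcan to the bell stage (0.77, adjusted p = 5.89e-12). In culture it gained Has1 (3.34, adjusted p = 2.18e-17) and Acan (1.76, adjusted p = 1.22e-11), and Vcan was not called (-0.15). The buccal part also gained Vcan to the bell stage (0.90, adjusted p = 8.51e-22). In culture the buccal part gained Acan as well (4.44, adjusted p = 1.47e-27) and lost Vcan (-0.74).

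Of the 11 genes for fibrillar procollagens and their processing, the substrates and partners of Adamts2 and Adamts3, 5 of 11 rose in the lingual part to the bell stage and 7 in culture, against 14.2% and 19.6% of all genes, with medians of 0.69 and 0.86 against 0.002 and -0.032. Col1a1, which encodes a chain of type I collagen, rose by 1.10 (adjusted p = 2.31e-15) and 1.94 (adjusted p = 1.26e-20), and Pcolce, an enhancer of the removal of the other propeptide, by 1.54 in culture. Col2a1, of cartilage, fell by 2.93 on the log2 scale to the bell stage (adjusted p = 6.39e-23). The rise was not confined to the lingual part. In the buccal part 5 of 11 were higher at the bell stage and 6 in culture, against 12.0% and 17.9% of all genes, and 1 was lower in each. The buccal medians were 0.30 and 0.57 against 0.005 and -0.020. By side Col2a1 was lower in the buccal part of the fresh cap (-1.07), where Col1a1 was higher (0.63). There 3 of 10 tested genes were higher and 2 lower, against 10.4% and 7.10% of all genes. After culture 1 of 11 was higher and 4 lower, against 12.5% in each direction. In the bell parts 1 gene of 11, Tll2, was called, against 12.9% of genes. Cartilage markers as a list summed to 266 to 283 CPM in Cap-L, 126 to 131 in Cap-B and 51.5 to 55.0 in Bell-L, with Matn1 at or under the floor in each, and their part in these values was not tested.

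In the fibrillin microfibril list Ltbp2, which binds fibrillin, rose by 3.82 in the lingual part to the bell stage (adjusted p = 8.89e-24), by 4.70 in culture (adjusted p = 2.14e-26) and by 3.34 in cultured buccal mesenchyme. Fbn2 was higher in the buccal part of the fresh cap (1.02) and after culture (1.35, adjusted p = 9.37e-21). Ccbe1, the partner of ADAMTS3 in trimming VEGF-C, rose in the lingual part to the bell stage (1.60, adjusted p = 2.81e-16), where Adamts3 fell, and was lower in Bell-B than in Bell-L (-1.49, adjusted p = 1.38e-23). Flt4, the receptor of VEGF-C on lymphatic endothelium, was lower in Cap-B+2D than in Cap-L+2D (-1.20, adjusted p = 1.29e-13). In that comparison 5 of 6 endothelial markers were also called lower and none higher, with a median of -1.37, and their part in the value of Flt4 was not tested.

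The inhibitors and the clearance receptor moved with culture. In the lingual part all 6 of the tested genes were higher in Cap-L+2D than in Cap-L, against 19.6% of all genes, with a median of 1.22 against -0.032, and in the buccal part 5 of 6 were higher against 17.9%, with a median of 1.00 against -0.020. Timp3, the tissue inhibitor with the widest action on ADAMTS enzymes, rose by 1.17 (adjusted p = 3.9e-16) and 1.01 (adjusted p = 1.03e-23), and Timp1 by 2.25 and 1.76. Lrp1, the receptor that takes up several ADAMTS enzymes, rose by 0.95 and 0.59. From cap to bell none of the 6 rose in either part, and 1 fell in each, A2m (-1.18) in the lingual part and Timp3 (-0.56) in the buccal part. Of all genes 14.2% were higher and 5.78% lower in the lingual part, and 12.0% and 6.73% in the buccal part. Counts this small in a list of 6 cannot be told apart from those shares. Between the undivided germs 4 of 6 were higher in Bell-W, against 10.3% of genes, and none lower. They were A2m (1.53), opposite in sign to the lingual part, Timp1 (1.28), Timp2 (0.90) and Reck (0.56). Of the 6 maturation enzymes Pcsk6, a convertase of proenzymes, rose in culture on both sides (1.87 and 1.92, adjusted p = 1.22e-21 and 4.6e-28), while B3glct, which extends the sugar on thrombospondin repeats, was lower in the buccal part in the fresh cap (-0.69) and after culture (-0.82).

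The upstream sequences are shown for the lingual pair Adamts20 and Adamts18 and for Adamts9, which went the other way in the fresh cap. They are the 250 bases before the RefSeq start on GRCm38.p6, 5′ to 3′ on the strand of the gene, minus in all 3. Capitals mark E-boxes (CANNTG, searched on both strands), the sites of basic helix-loop-helix factors.
Adamts20: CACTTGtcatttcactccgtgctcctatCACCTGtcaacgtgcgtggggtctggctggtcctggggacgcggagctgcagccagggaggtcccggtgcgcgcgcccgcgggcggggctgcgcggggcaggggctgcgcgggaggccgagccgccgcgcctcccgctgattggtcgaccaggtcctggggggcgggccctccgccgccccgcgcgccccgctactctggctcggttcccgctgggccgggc
Adamts18: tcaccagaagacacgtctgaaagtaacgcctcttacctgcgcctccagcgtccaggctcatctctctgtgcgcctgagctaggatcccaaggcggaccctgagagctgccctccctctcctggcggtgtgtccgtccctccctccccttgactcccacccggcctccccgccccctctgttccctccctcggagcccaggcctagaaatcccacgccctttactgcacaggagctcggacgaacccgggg
Adamts9: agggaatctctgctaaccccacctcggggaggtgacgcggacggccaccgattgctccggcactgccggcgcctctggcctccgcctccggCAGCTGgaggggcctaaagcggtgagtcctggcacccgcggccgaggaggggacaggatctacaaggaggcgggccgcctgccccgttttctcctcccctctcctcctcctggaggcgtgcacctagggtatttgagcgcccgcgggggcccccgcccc
They lie at chr15:94404351-94404600, chr8:113848840-113849089 and chr6:92943535-92943784. An E-box occurs 2 times in that of Adamts20, 1 time in that of Adamts9 and not in that of Adamts18. Promoters of 7 members were matched, of which 4 hold an E-box, against 66.2% of 32851 promoters of the same length, and 6 hold a GC box (GGGCGG), against 32.7%. The homeobox core TAATTG (7.17% of promoters) and the RUNX site TGTGGT (14%) occurred in none of the 7, and TATAAA (12.4%) in that of Adamts1. GC content was 76.4% for Adamts20, 65.2% for Adamts18 and 71.2% for Adamts9. No entry was matched for Adamts4, Adamts5 and Adamts15.

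The genes closest in pattern to each member, by Pearson correlation of log2 CPM over the 24 libraries among 14046 genes with an average log2 CPM of at least 2, are given as a description, since the libraries share groups and scaling. For Adamts20 they included Fendrr (r = 0.941) and Osbpl3 (0.925), and for Adamts18 they were Edaradd (0.927), BC064078 (0.918) and Ldhb-ps (0.914). For Adamts9 they were Adamtsl1 (0.937), Slco5a1 (0.926) and Dcc (0.926), and for Adamts1 Fosl2 (0.989), Klf6 (0.984) and Coq10b (0.978). Adamts12 was closest to Arhgap6 (0.976), Wdfy1 (0.958) and Adam12 (0.957), Adamts2 to Arap1 (0.985), Gbp7 (0.971) and Slc2a10 (0.970), and Adamts4 to Nrbp1 (0.976), Rgs1 (0.973) and Slc37a2 (0.968). For Adamts3 they were Eml4 (0.949), Bnc2 (0.937) and Cnksr2 (0.936), for Adamts15 Tmem26 (0.899), Setbp1 (0.888) and Igf2 (0.871), and for Adamts5 Gm13858 (0.916), Ikbip (0.908) and Atxn1 (0.906). Between members the correlation was 0.893 for Adamts2 and Adamts4 and 0.780 for Adamts18 and Adamts20, while it was -0.404 for Adamts20 and Adamts9 and -0.820 for Adamts3 and Adamts4.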

How the data were processed

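RNA-seq was analysed from 24 libraries of mouse tooth germ mesenchyme in 8 groups of 3. The authors deposited raw counts of read pairs per gene, without normalization, in 1 table whose header names featureCounts 2.0.0 run over the exons of Ensembl 107 on GRCm39, without strand, multi-mapping pairs or pairs on several genes. The labels' processing notes list FastQC 0.12.1, Trimmomatic 0.39, Bowtie 1.2.3, Subread 2.0.3 and DESeq2 1.40.2 and a SMARTER kit, whereas the methods name STAR and a stranded TruSeq kit, and which was used for these counts is unresolved. Symbols came from Ensembl 116 and named 56017 of 56748 genes. Every row of the table is a gene, and no sample column was left unused.

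Counts were fitted for all genes in R 4.3.3 with edgeR 4.0.16 (TMM, filterByExpr, quasi-likelihood test, Benjamini-Hochberg), 1 fit for the groups of each comparison, with the 3 lingual and the 3 buccal groups fitted together for stage and culture. The SE was taken as the fold change over the root of the F statistic. Interactions compare the buccal over lingual fold change at the bell stage or in culture with that in the fresh cap. Levels were CPM per 1000000 counts, scaled by TMM over all 24 libraries, and RPKM from the table's exon lengths. Totals of 20581720 to 39266497 counts make 3 counts the floor, and counting error is the only error that floors cover. The scripts were tested on simulated data. Libraries were grouped by their labels. No 2 libraries had identical counts.

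The members and gene lists were chosen with earlier results of these data known. The rule for named genes was all 10 members in each comparison, from each list the called genes whose mean log2 CPM reached 2, taking no more than the 4 largest folds per list and comparison, and for each member the 3 most correlated genes. List counts include called genes of lower level, which are named only to complete a count. Vcan in Bell-B against Cap-B was named outside this rule, beside its lingual value. Alternatives were RLE scaling, no count filter, at least 10 counts in every library, DESeq2 1.42.0, a joint fit of all 24 libraries, a block for the replicate number, a fold threshold of 1 and each library left out. Fold changes of the authors were not used. Protein sequences were not used here. Some results that involve genes outside the list are not reported here.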

Additional observations from a re-analysis of the deposited data

Results flagged for a closer look

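The results below are changes of the buccal over lingual log2 fold change that passed a test of the change itself (edgeR interaction term, adjusted p below 0.05). They involve 9 members from fresh cap to bell and 8 from fresh to cultured cap. From fresh cap to bell the side difference moved towards the buccal part for Adamts20 (1.11), Adamts18 (0.46) and Adamts3 (0.40), and towards the lingual part for Adamts9 (-2.09), Adamts15 (-0.96), Adamts5 (-0.80), Adamts12 (-0.72), Adamts2 (-0.41) and Adamts1 (-0.29). From fresh to cultured cap each of the 8 moved towards the lingual part, Adamts9 by -1.76, Adamts18 by -1.13, Adamts5 by -1.04, Adamts20 by -1.02, Adamts12 by -0.96, Adamts15 by -0.69, Adamts2 by -0.56 and Adamts1 by -0.22. Adjusted p ran from 1.27e-20 (Adamts9, bell) to 0.0203 (Adamts3, bell). With all 24 libraries in 1 fit, Adamts1, Adamts2, Adamts3, Adamts5 and Adamts18 no longer passed from fresh cap to bell (adjusted p = 0.202, 0.248, 0.117, 0.206 and 0.482), and Adamts18, Adamts5, Adamts2 and Adamts1 no longer passed in culture (0.0575, 0.0614, 0.0694 and 0.375). Markers of other cell types changed their side difference as well. From fresh to cultured cap 6 of 7 epithelial markers (median change -3.13), 5 of 6 endothelial markers (-1.23), 4 of 5 macrophage markers (-0.47) and 4 of 7 skeletal muscle markers (-0.52) passed with a negative change. From fresh cap to bell all 5 macrophage markers (-0.78) and 6 of 7 skeletal muscle markers (-1.53) did. Other lists went the opposite way to the bell stage. Of the tested markers, 5 of 6 for cartilage (median change 1.31), 5 of 5 for osteoblasts (0.98) and 4 of 4 for tendon (0.57) passed with a positive change. None of these 3 lists had a marker passing with a negative change. Their part in the members' changes was not tested.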

How the results depend on the processing

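With a fold threshold of 1 in place of 0.5, the members called fell from 7 to 3 for Cap-B against Cap-L, 4 to 1 for Bell-B against Bell-L, 5 to 3 for Cap-B+2D against Cap-L+2D, 7 to 1 for Bell-L against Cap-L, 8 to 5 for Cap-L+2D against Cap-L, 4 to 1 for Cap-L+2D against Bell-L and 6 to 1 for Bell-B against Cap-B. All genes called then numbered 1861 for Bell-W against Cap-W, 1762, 1099 and 2584 by side in cap, bell and culture, 2008, 3510 and 2928 in the lingual and 1810, 3818 and 3391 in the buccal fits, fewer by construction. With all 24 libraries in 1 fit 4 members passed for the side by stage change and 4 for the side by culture change, and all genes called were 2581, 4048 and, for Bell-W against Cap-W, 5887 against 3037. In that fit the side calls of Adamts5 in the fresh cap (0.63) and Adamts18 in the bell parts (-0.72) were also lost, with adjusted p of 0.0998 and 0.0749, and the cause was not tested. Leaving out Cap-W replicate 3 or Bell-W replicate 2 gave 1758 and 1832 genes.

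Leaving out 1 library at a time, the members called ranged from 6 to 8 for Bell-W against Cap-W, 6 to 7 for Cap-B against Cap-L, 4 to 4 for Bell-B against Bell-L, 5 to 5 for Cap-B+2D against Cap-L+2D, 6 to 8 for Bell-L against Cap-L, 7 to 8 for Cap-L+2D against Cap-L, 3 to 4 for Cap-L+2D against Bell-L, 5 to 6 for Bell-B against Cap-B, 7 to 8 for Cap-B+2D against Cap-B, 4 to 4 for Cap-B+2D against Bell-B, 8 to 10 for side by stage and 8 to 9 for side by culture. Reversals touched uncalled values near 0. They were Adamts15 in the bell parts without Bell-L replicate 1 (-0.0017) or Bell-B replicate 1 (-0.02), over a range of -0.02 to 0.03, Adamts9 between Cap-L+2D and Bell-L with RLE scaling (0.01), DESeq2 (0.01) or no filter (0.02) and without Cap-L+2D replicate 1 (0.0022) or Bell-L replicate 2 (0.005), over a range of -0.01 to 0.005, and Adamts4 in the side by culture change without Cap-L replicate 2 (0.02) or Cap-L+2D replicate 3 (0.01), over a range of -0.07 to 0.02, or with all 24 libraries (0.01). Adamts20 between the undivided germs was called with DESeq2 (-0.89), without a filter (-0.86) or with all 24 libraries in 1 fit (-0.87). Over single members, 687 of the values under other settings kept direction and side of the threshold, 22 were no longer called, 7 became called and 4 changed sign.

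Replicate numbers are shared between groups, and the deviations of same-numbered libraries from their group means had correlations of -0.241 to 0.325. With 3 libraries a group, these values cannot decide whether libraries of the same number share an origin. Under a block for that number, the members called were 6, 7, 4 and 5 for the undivided germs and the sides in cap, bell and culture, 6, 8 and 4 in the lingual fit, 6, 7 and 4 in the buccal fit, and 9 and 8 for the side changes. Depth limits Adamts18 most, whose lowest library stands at 2.31 CPM.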

Other observations

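Of the Adamts genes outside the list, 3 were named here after their values were seen. Adamts16, the nearest relative of Adamts18, was 0.372, 11.3 and 0.62 CPM in the Cap-W libraries, of which replicate 2 stands apart, and its highest group mean among the parts was 6.44 ± 0.753 CPM in Cap-B+2D, where Adamts18 was lowest. Adamts17 varied little between the parts, from 54.4 CPM in Bell-L to 74.0 in Cap-B. Adamts13, the enzyme that trims von Willebrand factor, was at most 1.12 CPM in any library.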
